A study of Homo sapiens with 10 samples.

Results

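Tubulins are the building blocks of microtubules, and the mRNAs of 9 human tubulin genes were followed here through the edits that a ribosome-bound deaminase left on them. The genes were taken by symbol, from a list made with earlier results of these data known. They were TUBA1A, TUBA1B and TUBA1C of the alpha family, TUBB, TUBB2A, TUBB4B and TUBB6 of the beta family, and TUBG1 and TUBG2 of the gamma family. All 9 were listed in the data, out of 10631 genes in the series. The measurements come from Ribo-STAMP, a fusion of APOBEC1, an enzyme that turns C into U in RNA, with the ribosomal protein RPS2. The fusion edits mRNAs that ribosomes are reading, and long reads of polyadenylated RNA then show the edits as mismatches. HEK293T cells, an embryonic kidney line, expressed Ribo-STAMP (n = 3) or APOBEC1 without the ribosomal protein (APOBEC1-only, n = 3) from vectors induced with 1 ug/mL doxycycline for 72 h. MDA-MB-231 cells, a triple-negative breast cancer line, all carried Ribo-STAMP, induced with 1 ug/mL doxycycline for 48 h, and were either given 100 uM CoCl2, a cobalt salt that mimics low oxygen, for 48 h (n = 2) or left without it (untreated, n = 2). No library of MDA-MB-231 with APOBEC1 alone was analysed here, so the level of editing that does not need the ribosome is not known in that line, and the kits and induction times differ between the lines.

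Alpha- and beta-tubulin pair into the dimer that polymerises into microtubules, while gamma-tubulin sits in the ring complex that starts new ones. Tubulin mRNAs are known for being controlled on the ribosome itself: when free dimers are in excess, the factor TTC5 recognises the beginning of the nascent alpha- or beta-tubulin chain as it leaves the ribosome, and SCAPER and the CCR4-NOT deadenylase then have the mRNA degraded. The beginning of the coding sequence, which in the alpha and beta genes encodes the recognised end of the chain, is shown here with the gamma genes beside them (GENCODE 29, GRCh38, coding strand), with the first 4 codons in capitals and the first 10 codons in all.
TUBA1A, TUBA1B and TUBA1C: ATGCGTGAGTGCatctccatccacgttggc
TUBB: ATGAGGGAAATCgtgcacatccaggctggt
TUBB2A: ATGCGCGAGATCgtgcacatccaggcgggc
TUBB4B: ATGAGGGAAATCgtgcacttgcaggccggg
TUBB6: ATGAGGGAGATCgtgcacatccaggcgggc
TUBG1: ATGCCGAGGGAAatcatcaccctacagttg
TUBG2: ATGCCCCGGGAGatcatcaccctgcagctg

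The 3 alpha genes were identical over these 30 bases, the 4 beta genes differed from each other at a few of them, and the gamma genes began with another sequence. Over the whole coding sequence the alpha genes shared 96.3 to 97.3% of bases, with identical runs of up to 326 bases between TUBA1B and TUBA1C. The beta genes shared 81.3 to 87.2% and the gamma pair 94.7%. How the authors assigned reads between such close copies is not given in the sources used here, so the values of the alpha genes, and of TUBG1 and TUBG2, may hold reads of each other. TUBA1A (chromosome 12, 49184796 to 49189324, minus strand) and TUBA1C (chromosome 12, 49188736 to 49274603, plus strand) also overlap at their gene ends, and TUBA1B (chromosome 12, 49127782 to 49131397, minus strand) lies beside them. TUBB (30720201 to 30725426) and TUBB2A (3153669 to 3157526) are on chromosome 6, TUBB4B (137241213 to 137243707) on chromosome 9, TUBB6 (12307669 to 12344320) on chromosome 18, and TUBG1 (42609676 to 42615234) and TUBG2 (42659305 to 42667006) on chromosome 17.

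The libraries held 81592 to 203094 covering reads on listed isoforms in HEK293T and 1121188 to 1205816 in MDA-MB-231. Of 7 markers chosen for MDA-MB-231, all were covered there and ANXA1, AXL, CD44, PLAU and S100A4 were not listed in HEK293T, whereas CAV1 had up to 1 and VIM up to 88 covering reads in HEK293T Ribo-STAMP libraries, and VIM up to 33 with APOBEC1-only. Conversely, LIN28B and NEFM were listed in HEK293T and not in MDA-MB-231, although NEFL was listed nowhere and CKB, chosen as a HEK293T marker, was listed in both lines. Of the 8 genes chosen to check CoCl2, BNIP3, PGK1, LDHA and the barely covered CA9 had more coverage in both CoCl2 libraries than in both untreated ones, SLC2A1 and NDRG1 had less, P4HA1 overlapped and VEGFA was not listed. The labels do not say that replicates came from separate cultures, so p-values measure the spread between these libraries, which may be technical. The files list a position only where at least 1 read was edited, and no position was listed in all 4 MDA-MB-231 libraries, of 39890 listed in 3 of them, or in all 6 HEK293T libraries, of 54 listed in 5. What removed such positions is not given in the sources used here, and the tubulin values below carry that gap, as their base context shows.

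In HEK293T, tubulin mRNAs were edited with Ribo-STAMP and close to unedited with APOBEC1-only. The 9 genes together held 179, 220 and 404 edited reads in the Ribo-STAMP libraries, against 28, 12 and 29 in the APOBEC1-only libraries. Per 100 covering reads this came to 51.6 ± 4.38 edited reads in the Ribo-STAMP libraries and 2.70 ± 1.20 in the APOBEC1-only libraries (SD, n = 3 each), where edited reads are summed over all positions of an isoform and coverage is the median over its listed positions. The groups did not overlap. Without TUBA1B, which dominated the sum, the values were 38.4 ± 0.951 with Ribo-STAMP and 2.97 ± 0.560 with APOBEC1-only. No p-value is given for the family, since its members were chosen with results known, and an exact test could not go below 0.1 here or 0.333 in MDA-MB-231.

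TUBA1B, the most covered tubulin in both lines, had 134, 166 and 301 edited reads in the Ribo-STAMP libraries and 24, 8 and 22 in the APOBEC1-only ones. Its coverage ran the other way, with 211, 272 and 596 reads in the Ribo-STAMP libraries and 628, 693 and 761 in the APOBEC1-only libraries. Editing of TUBA1B was thus higher in every Ribo-STAMP library although fewer reads covered it there. Per 100 covering reads it reached 63.5, 61.0 and 50.5 in the Ribo-STAMP libraries and 3.82, 1.15 and 2.89 in the APOBEC1-only libraries. Edited positions of TUBA1B recurred: of 156 positions edited with Ribo-STAMP, 83 were listed in at least 2 of the 3 libraries and 37 in all 3, while 35 were listed with APOBEC1-only and 18 with both constructs.

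The other members were read far less deeply. TUBA1A, the alpha-tubulin best known from neurons, had 11, 16 and 24 edited reads in the Ribo-STAMP libraries and 3, 1 and 0 in the APOBEC1-only ones. TUBB, the ubiquitous class I beta-tubulin, had 11, 8 and 24 with Ribo-STAMP and 1, 1 and 1 with APOBEC1-only. TUBG1, the main gamma-tubulin, had 10, 4 and 17 with Ribo-STAMP and was not listed with APOBEC1-only. In these 3 genes every Ribo-STAMP library stood above every APOBEC1-only library, and the same held for TUBB2A, TUBB4B and TUBB6, whose Ribo-STAMP values were between 2 and 18 edited reads and whose APOBEC1-only values were between 0 and 2. The same held for 99.7% of the 654 genes with enough edited reads to be tested. TUBB, TUBG1, TUBB2A, TUBB4B and TUBB6 had too few to be among them, so that share is not a matched background for these members. TUBA1C had 4, 0 and 8 edited reads in the Ribo-STAMP libraries and 0, 0 and 2 in the others, which overlap, and TUBG2 was listed with 1 edited read in 1 Ribo-STAMP library.

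**Figure D1:**
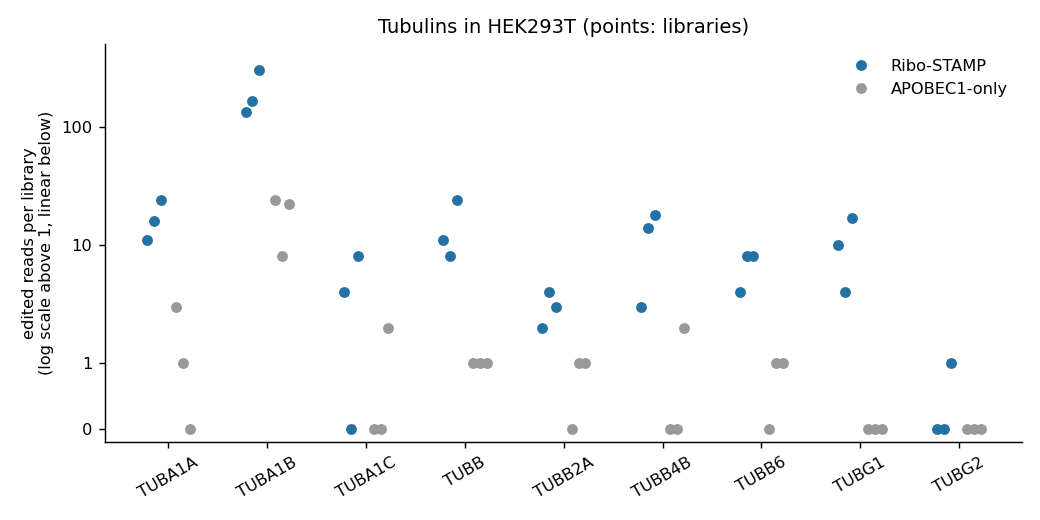
Edited reads per HEK293T library (y axis, log scale above 1 and linear below) for each tubulin gene (x axis), with 3 Ribo-STAMP libraries in blue to the left of 3 APOBEC1-only libraries in grey. TUBA1B sits at 134 to 301 reads with Ribo-STAMP and 8 to 24 with APOBEC1-only, and the groups overlap for TUBA1C and TUBG2.

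Tests across all genes covered few tubulins, because a gene needed at least 10 edited reads in 3 libraries, which TUBA1A and TUBA1B both met through the Ribo-STAMP libraries, so that the count of members called is no support. TUBA1B was higher with Ribo-STAMP by 3.33 ± 0.50 on the log2(edited reads per relative depth + 1) scale (SE, limma with Benjamini-Hochberg adjustment, adjusted p = 3.4e-08), and TUBA1A by 3.06 ± 0.55 (limma, adjusted p = 1.3e-06). Of all 654 genes tested, 99.7% were called higher, with a median change of 3.75, so both tubulins changed by less than the median gene. Scaled by TMM on the edited reads, a trimmed mean of ratios that takes most of the common change out and leaves the median gene at 0.75, TUBA1B turned to -0.62 and TUBA1A to 0.22, and neither was called. Per covering read, the measure tested was the log2 ratio of edited to unedited read-positions. It counts each covering read at every position of its isoform that any library of the line lists. On it TUBA1B was higher by 4.59 ± 0.42 (limma, adjusted p = 1.9e-07) and TUBB by 3.88 ± 0.45 (limma, adjusted p = 1.9e-06). There 95.7% of 392 genes were called higher, with a median of 3.47, and in 95.4%, as in these 2 tubulins, every Ribo-STAMP library stood above every APOBEC1-only library. Only isoforms listed in all 6 libraries enter this measure, which keeps genes edited with APOBEC1-only. With each library centred on its median gene, TUBA1B stayed higher by 1.22 (limma, adjusted p = 0.032) and TUBB had 0.51 (limma, adjusted p = 0.41), and the calls over all genes split into 73 higher and 53 lower, against 375 higher and 0 lower before centring. Between the members themselves, Ribo-STAMP levels in HEK293T ranged from 20.3 to 43.4 edited reads per 100 covering reads and kb of coding sequence, and the library ranges of all neighbours in that order overlapped.

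In MDA-MB-231, edited reads on tubulin mRNAs were more numerous after CoCl2. The 9 genes held 1355 and 1103 edited reads in the CoCl2 libraries, against 543 and 694 in the untreated libraries, which was 0.785 and 0.709% of all edited reads with CoCl2 and 0.307 and 0.437% without it. For each of the 9 genes both CoCl2 libraries stood above both untreated libraries, which 41.3% of all 4097 genes tested also did. TUBG2 met the minimum of edited reads for the test through the CoCl2 libraries alone, so it could enter only as a higher gene. It is kept in the member counts and the median here, but its own result is not read against the shares of all genes. TUBA1B, TUBB2A, TUBB4B and TUBG1 passed the test of edited reads (limma with Benjamini-Hochberg adjustment, adjusted p between 0.030 and 0.038), against 12% of all genes called higher and 2.9% called lower. TUBG2 also passed (limma, adjusted p = 0.030), with the limit just given. TUBA1A, TUBB6, TUBA1C and TUBB missed the threshold (limma, adjusted p = 0.051, 0.052, 0.062 and 0.14). The base context of the listed positions of TUBA1B, TUBB4B and TUBA1C, given below, limits what their counts of edited reads stand for. The median change was 1.17 over the members, TUBG2 included, and 0.19 over all genes. With TMM scaling of the edited reads the median over all genes was -0.0049, the calls over all genes were 212 higher and 199 lower, against 493 higher and 119 lower with scaling by depth, and 4 members were called higher, TUBB2A (0.97, limma, adjusted p = 0.064) no longer among them. None of these calls held without either CoCl2 library: leaving out CoCl2 replicate 1 or CoCl2 replicate 2 left 0 members called (and 0 and 1 of all genes called higher), while leaving out untreated replicate 1 gave 9 and untreated replicate 2 gave 8. The remaining library of a group is there assumed to vary like the other group.

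Among the alpha genes, TUBA1B had 174 and 152 edited reads with CoCl2 and 63 and 83 without it, a log2 change of 1.31 ± 0.29. TUBA1A had 117 and 117 with CoCl2 and 52 and 79 without it, a change of 1.01 ± 0.32. TUBA1C, a widely expressed alpha-tubulin, had 178 and 128 with CoCl2 and 85 and 101 without it, a change of 0.85 ± 0.29. The groups do not overlap in any of the 3, but the CoCl2 libraries of TUBA1C differ from each other by more than those of the other alpha genes.

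Among the beta genes, TUBB4B, a class IV beta-tubulin found in most tissues and in cilia, had 206 and 204 edited reads with CoCl2 and 73 and 101 without it, a log2 change of 1.40 ± 0.29. TUBB2A had 169 and 107 with CoCl2 and 55 and 79 without it, a change of 1.17 ± 0.33. TUBB6, the divergent class V beta-tubulin, had 170 and 125 with CoCl2 and 71 and 97 without it, a change of 0.96 ± 0.30. TUBB had the smallest change of the family, with 92 and 76 edited reads with CoCl2 and 64 and 54 without it, a change of 0.65 ± 0.31.

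Among the gamma genes, TUBG1 had 214 and 172 edited reads with CoCl2 and 77 and 93 without it, a log2 change of 1.32 ± 0.28. TUBG2, its less abundant paralog, had 35 and 22 with CoCl2 and 3 and 7 without it, a change of 2.48 ± 0.54. TUBG2 reached the minimum of 10 edited reads through the CoCl2 libraries alone, so it could enter the test only as a gene that was higher, and its change rests on few reads. The other 8 members passed that minimum in all 4 libraries.

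**Figure D2:**
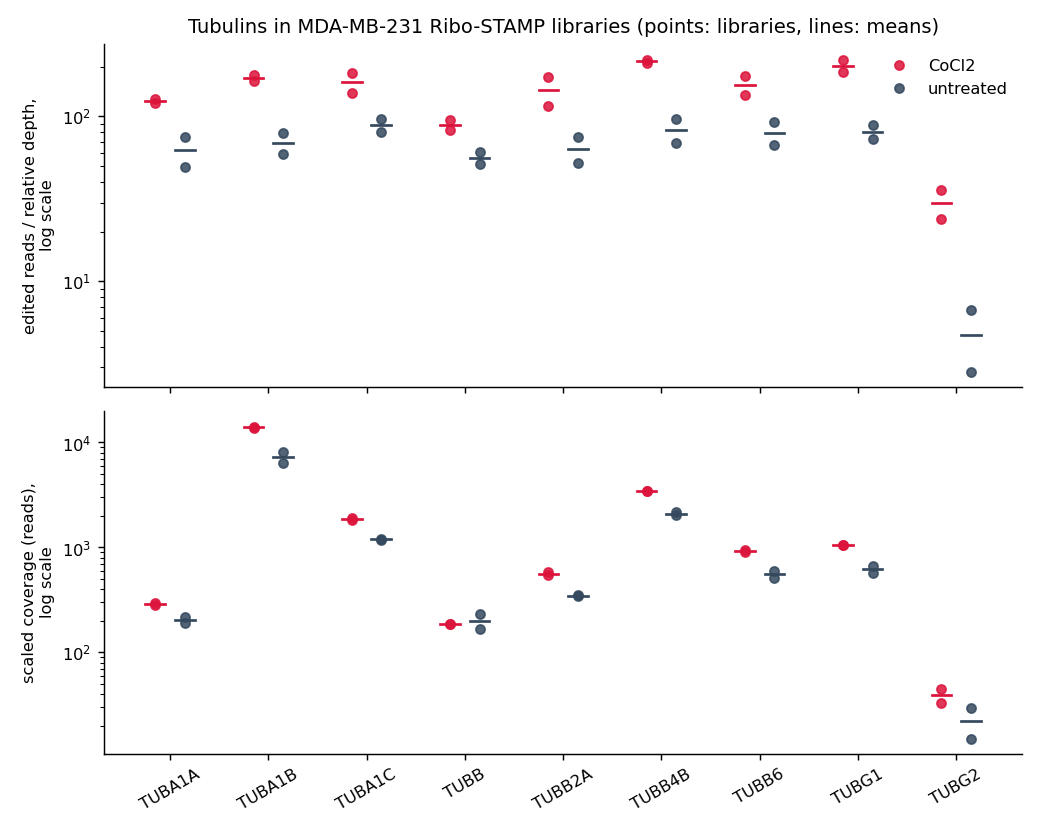
Depth-scaled edited reads (upper panel) and scaled coverage in reads (lower panel), both on log scales, for each tubulin in 2 CoCl2 libraries (red, left) and 2 untreated libraries (dark, right), with lines at the means. All 9 genes have more edited reads in both CoCl2 libraries, and all but TUBB also more coverage.

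Coverage, the stand-in for mRNA abundance, was also higher after CoCl2 for most tubulins, and in these bulk libraries more RNA per cell and more cells with that RNA cannot be told apart. TUBA1B had 13773 and 12585 covering reads with CoCl2 and 6826 and 8624 without it, a log2 change of 0.95 ± 0.18 after TMM scaling (limma, adjusted p = 0.0018). TUBG1 had 1034 and 963 with CoCl2 and 599 and 713 without it, a change of 0.78 ± 0.19 (limma, adjusted p = 0.0045). TUBB4B had 3348 and 3132 with CoCl2 and 2148 and 2289 without it, a change of 0.71 ± 0.17 (limma, adjusted p = 0.0046). These groups lay well apart, as did those of TUBB6, TUBB2A and TUBA1C, with changes of 0.73, 0.70 and 0.64 that also passed (limma, adjusted p between 0.0064 and 0.0091). TUBA1A had 274 and 271 covering reads with CoCl2 and 200 and 231 without it, a change of 0.51 ± 0.21 that missed the threshold (limma, adjusted p = 0.058), as did that of TUBG2, with 44 and 30 reads with CoCl2 and 16 and 31 without it (0.84 ± 0.38, adjusted p = 0.073). TUBB was the exception, with 182 and 166 reads with CoCl2 and 244 and 178 without it, a change of -0.09 ± 0.23 (limma, adjusted p = 0.75), which turned to 0.13 without untreated replicate 1 and to 0.20 with the trend on transcript length taken out. In all, 6 of 9 members were called higher and 0 lower, against 24.5% of 5673 genes called higher and 19% lower, and both CoCl2 libraries stood above both untreated ones for 8 of 9 members and for 39% of all genes. Leaving out either CoCl2 library left 0 members called, and leaving out untreated replicate 1 or 2 gave 7 or 8.

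The change in coverage with CoCl2 moved with transcript length over all genes. Its median was 0.87 for transcripts up to 1500 bases, 0.53 from there to 2000 bases, -0.18 to 3000 bases and -0.59 beyond, up to 5000 bases. Edited reads followed the same order, with medians of 1.19, 0.71, -0.01 and -0.49. The main transcripts of 6 tubulins are 1595 to 1915 bases long, that of TUBB6 2064, that of TUBB 2670 and that of TUBA1C 3001, so most of the family falls in a length class where the median gene also had more coverage and more edited reads after CoCl2. With the length trend taken out, TUBA1B kept a coverage change of 0.40, TUBB6 of 0.53 and TUBA1C of 1.08, and these 3 were called, whereas TUBB2A, TUBB4B and TUBG1 had 0.13, 0.17 and 0.22 and were not. For edited reads, the same step left 1 member called, TUBA1C with 1.18 (limma, adjusted p = 0.029). The part of RNA quality in the length trend was not tested.

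Edited reads per covering read showed no tubulin past the threshold. Levels with CoCl2 against untreated were 1.26 and 1.21 against 0.92 and 0.96 edited reads per 100 covering reads for TUBA1B, 50.5 and 45.0 against 26.2 and 30.3 for TUBB, and 79.5 and 73.3 against 18.8 and 22.6 for TUBG2. In these 3, and in TUBA1A, TUBB4B and TUBG1, both CoCl2 libraries stood above both untreated ones, while TUBA1C, TUBB2A and TUBB6 overlapped. That made 6 of 9 members, against 31.2% of all genes. The log2 changes in the ratio of edited to unedited read-positions ranged from 0.22 to 1.77 with a median of 0.51, where all 5673 genes had a median of 0.20. The count of genes called by limma was 0 over the whole table, which gives a background of 0%, so the test had no call to give for any gene. At an unadjusted p under 0.05 it picked 484 of 5673 genes and 5 of 9 members, TUBA1B, TUBB, TUBB4B, TUBG1 and TUBG2. The members were chosen with results known and none passed after adjustment, so that count is no support. For the whole family the level was 5.82 ± 0.513 edited reads per 100 covering reads with CoCl2 and 4.65 ± 0.274 without it (SD, n = 2 each), and without TUBA1B it was 13.5 ± 1.44 with CoCl2 and 9.81 ± 1.24 without it.

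**Figure D3:**
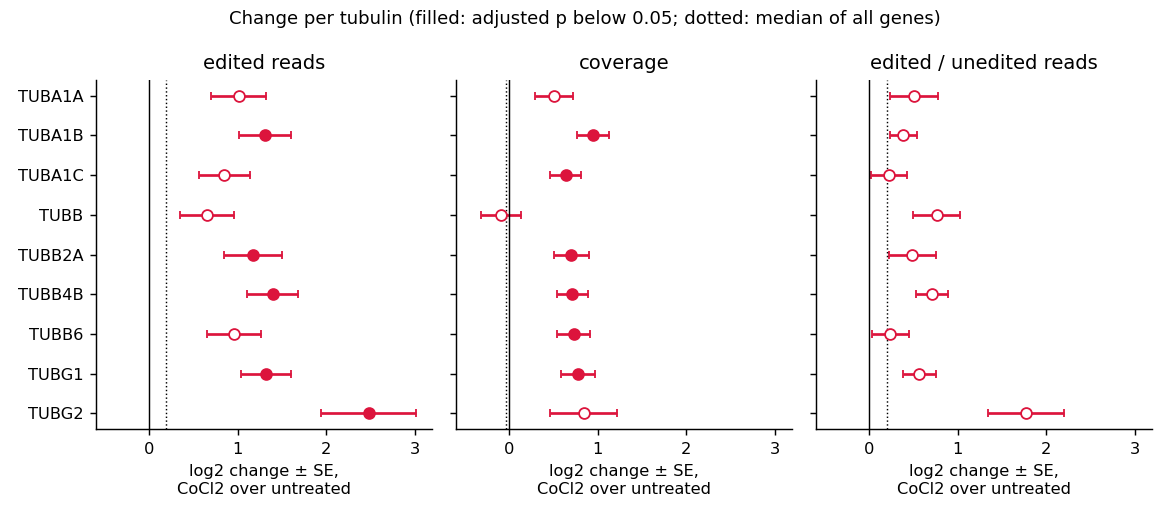
Log2 change ± SE, CoCl2 over untreated (x axis), of edited reads, coverage, and the ratio of edited to unedited read-positions for each tubulin (y axis), with filled points where the adjusted p was below 0.05 and dotted lines at the median of all genes. Of the 9 members, 5 are filled for edited reads, 6 for coverage and 0 for the ratio, and TUBB lies at -0.09 in coverage.

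The levels themselves spanned a wide range between members, in nearly opposite order for coverage and for editing. The editing level has coverage as its divisor, so these orders are not independent, and the part of the divisor was not tested. With CoCl2, TUBA1B had a scaled coverage of 13955 ± 299 reads, TUBB4B 3432 ± 16.5 and TUBA1C 1874 ± 46.4 (SD, n = 2), followed by TUBG1, TUBB6, TUBB2A, TUBA1A and TUBB at 1058, 926, 565, 289 and 186 reads, and TUBG2 at 39.0. No 2 neighbours in that order overlapped. In untreated cells the order was the same, from 7288 ± 1193 reads for TUBA1B and 2093 ± 92.1 for TUBB4B to 22.2 ± 9.99 for TUBG2, but TUBG1 and TUBB6 overlapped, as did TUBA1A and TUBB. Coverage counts the reads over a position and was not divided by length, and the part of transcript length in these levels was not tested. Listed edits per 100 covering reads and kb of coding sequence were lowest in TUBA1B, with 0.91 ± 0.03 with CoCl2 and 0.70 ± 0.02 in untreated cells, and next lowest in TUBB4B, with 4.73 ± 0.19 with CoCl2 and 2.92 ± 0.54 in untreated cells. The listed positions of both genes differ in base context from those of less covered members, as given below, so these low values are not read as less editing. With CoCl2 the level was highest in TUBG2, at 56.4 ± 3.24, with no overlap with TUBB at 35.8 ± 2.96. In untreated cells it was highest in TUBA1A and TUBB, at 22.2 ± 4.28 and 21.2 ± 2.18, whose ranges overlapped, and TUBG2 had 15.2 ± 2.00. In HEK293T Ribo-STAMP libraries, TUBA1B was the most covered member too, but with only 211, 272 and 596 reads. Its editing of 43.0 ± 5.09 per 100 covering reads and kb (SD, n = 3) was second to the 43.4 ± 15.2 of TUBA1A, whose range overlapped. The lowest was TUBG1 at 20.3 ± 8.18, which did not overlap with TUBA1B.

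The base before the edited C moved with this order. APOBEC1 is known to favour a C that follows A or U, and over all isoforms of MDA-MB-231 covered by at most 10 reads 88.3% of listed positions followed A or U, where 43.9% of all coding C do. That share fell with coverage, to 79.4% between 100 and 300 reads, 63.0% to 1000, 34.3% to 3000 and 21.5% above 3000 reads. The tubulins lay along the same course: 89.6% of the positions of TUBG2 followed A or U, 82.2% of TUBB, 71.9% of TUBA1A, 62.6% of TUBB2A, 59.2% of TUBG1, 47.5% of TUBB6, 32.2% of TUBA1C and 19.6% of TUBB4B. TUBA1B, the most covered, had 0 of 115 listed positions after A or U, although 40.3% of the C in its coding sequence follow them. Edited reads per isoform also levelled off. The median isoform covered by 100 to 300 reads had 31 and 29 edited reads with CoCl2 and 26 and 26 in untreated cells, that covered by 1000 to 3000 reads 102.5 and 92 with CoCl2 and 83 and 81 in untreated cells, and that above 3000 reads 132 and 102 with CoCl2 and 97.5 and 104 in untreated cells. In HEK293T Ribo-STAMP libraries the medians were 36, 37 and 39 at a coverage of 100 to 300. Between 300 and 1000 reads they were 175, 169.5 and 179, over 59, 50 and 65 isoforms. Between 1000 and 3000 reads, replicate 1 had a median of 474 over 7 isoforms. Replicates 2 and 3 held only 1 isoform each there, with 436 and 1393 edited reads. The sum for TUBA1B in MDA-MB-231 therefore holds none of the positions that APOBEC1 favours. In TUBB4B and TUBA1C the shares after A or U also lay below the 38.9 and 40.1% of all their coding C. Whether the listed reads of TUBA1B, TUBB4B and TUBA1C are edits by APOBEC1 or other mismatches was not tested. Of the coding C after A or U, 25% were listed in TUBB4B and 36.9% in TUBA1C, against 55.4 to 64.2% in TUBA1A, TUBB, TUBB2A, TUBB6 and TUBG1 and 23.1% in TUBG2, the least covered. Because the listed positions differ so much in kind, the levels of editing of TUBA1B, TUBB4B and TUBA1C are not read against those of the less covered members. Which step removed those positions was not tested. Taken relative to genes of like coverage in each library, the log2 changes of edited reads with CoCl2 were 0.69 for TUBA1B, 0.89 for TUBB4B, 0.83 for TUBG1, 0.66 for TUBB2A and 1.93 for TUBG2, and 0 members and 0 genes were called (limma, adjusted p between 0.21 and 0.33 for these 5).

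**Figure D4:**
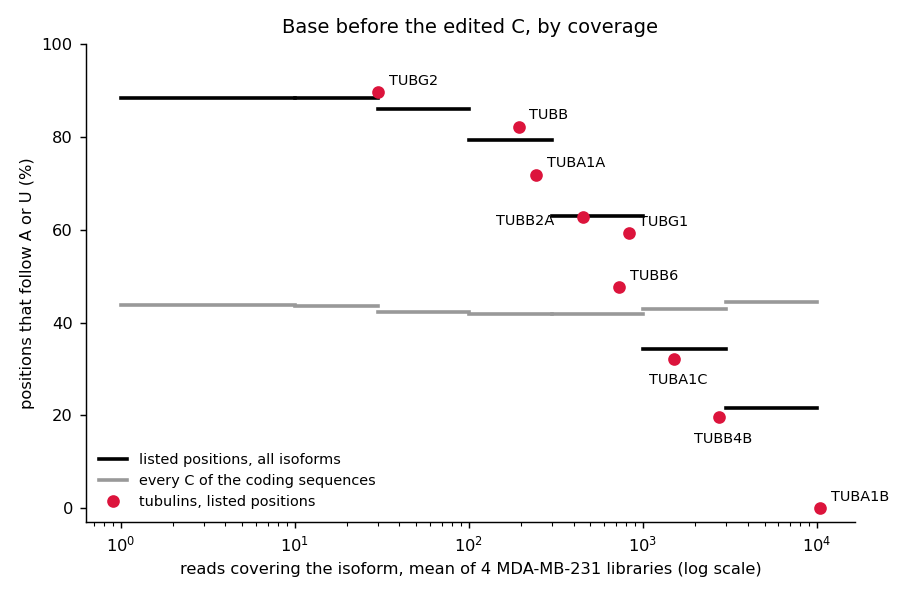
Share of edited positions that follow A or U (y axis, %) against the reads covering the isoform (x axis, mean of 4 MDA-MB-231 libraries, log scale), with black bars for listed positions of all isoforms by coverage class, grey bars for every C of those coding sequences, and red points for the tubulins. The points fall from 89.6% for TUBG2 to 0% for TUBA1B.

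Positions were mapped in MDA-MB-231, where 100% of the tubulin entries fell on GRCh38 coding bases of the named gene, against 0 to 10% in the HEK293T libraries, whose coordinates are therefore not used. The family had 1342 edited positions with 3695 edited reads, and 37.6% of the C in its coding sequences were listed at least once. Of these positions 651 were listed in 1 library, 389 in 2 and 302 in 3. Of the 302, an untreated library was the missing one for 67.9%, against 53.2% for all genes. A single edited read in all was found at 42.3% of the positions. Edited reads were spread over the whole coding sequence, with 108, 113, 93.8, 95.0 and 114 edited reads per 100 C in 5 equal stretches from start to stop codon. The first 10 codons were edited in every gene, with 3 positions and 19 edited reads in TUBA1B, 5 and 15 in TUBB6, 5 and 12 in TUBA1C, and 1 position and 1 read in TUBG2. The last base of a codon held 51.9% of listed positions, where it holds 49.3% of all C.

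**Figure D5:**
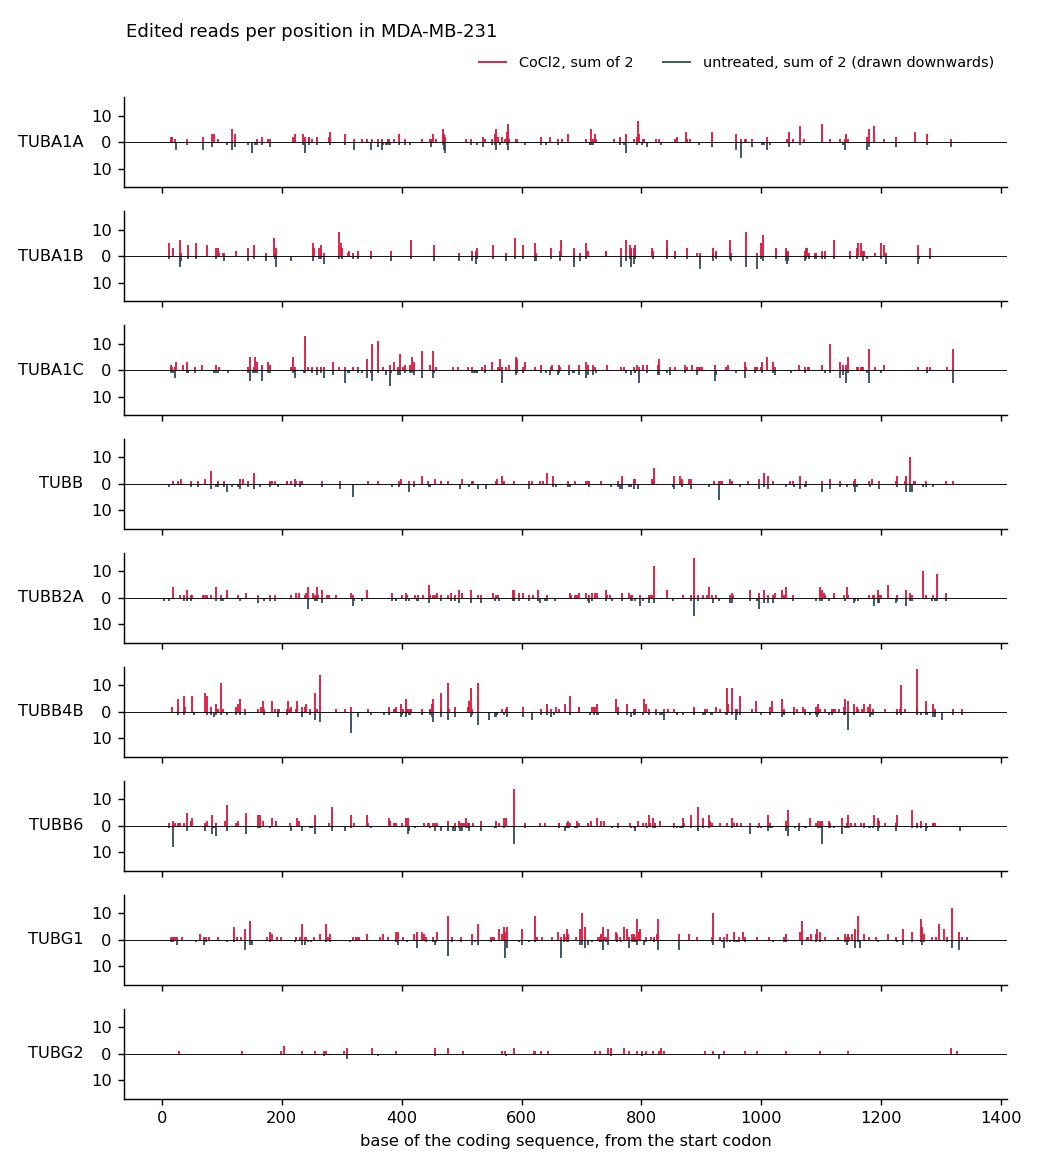
Edited reads at each position of the coding sequence (x axis, bases from the start codon) for the 9 tubulins, with the sum of 2 CoCl2 libraries upwards in red and the sum of 2 untreated libraries downwards in dark. Edits run over the whole length of each gene, no position exceeds 16 reads upwards or 8 downwards, and TUBG2 is sparse.

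A position with the most edited reads of its gene is shown for 5 of the genes with 12 bases on either side on the coding strand (GENCODE 29, GRCh38) and the edited C in capitals, to show the bases around it.
TUBB2A: agatgttcgactCcaagaacatgat
TUBB6: tggtggagaataCagacgagaccta
TUBB4B: cttccggccggaCaacttcgttttc
TUBG1: acggctgaatgaCaggtatcctaag
TUBG2: agctggcaacaaCtgggccagcgga

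In these 5, which do not stand for the whole family, the edited base follows A in all but TUBB2A, where it follows T in the DNA; in TUBA1B, as given above, no listed position follows either. The TUBB2A position (chromosome 6, 3154314, exon 4, codon 296) had 7 and 8 edited reads of 570 and 497 with CoCl2, and 7 of 363 in untreated replicate 2. The TUBB6 position (chromosome 18, 12325376, exon 4, codon 196) had 8 and 6 of 906 and 821 with CoCl2, and 7 of 628 in untreated replicate 2. Edited reads made up 1.23, 1.61 and 1.93% of the covering reads in TUBB2A and 0.883, 0.731 and 1.11% in TUBB6, and neither position was listed in untreated replicate 1. No position in the data was listed in all 4 libraries, so every position shown lacks at least 1 library. Such a gap is not read as an absence of editing. The TUBB4B position (chromosome 9, 137242008, exon 3, codon 88) had 6 and 8 of 3349 and 3133 reads with CoCl2, and 4 of 2148 in untreated replicate 1, or 0.179, 0.255 and 0.186%. TUBG1 (chromosome 17, 42612504, exon 5, codon 159) had 3 and 6 of 1031 and 961 with CoCl2, and 6 of 711 in untreated replicate 2. A second TUBG1 position, in codon 440, had as many edited reads in all, 15.

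Matching positions of the paralogs could be compared where the aligned C is present in every gene of a family. The 4 beta genes share 276 such C, of which 12 were listed in all 4 genes, 40 in none and 89 in 1. The 3 alpha genes share 350, of which 6 were listed in all 3 and 65 in none, and the gamma pair shares 407, of which 20 were listed in both. Since no listed position of TUBA1B follows A or U, none of the 137 shared alpha C that follow them in each gene could be listed in all 3. Of the 12 C listed in all 4 beta genes, the one with the most edited reads was base 477 of the coding sequence, in codon 159, with 14 reads in TUBB4B, 4 in TUBB6, 1 in TUBB and 1 in TUBB2A over the 4 libraries, shown with 10 bases on either side and the edited C in capitals.
TUBB: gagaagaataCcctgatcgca
TUBB2A: gggaagagtaCccagaccgca
TUBB4B: gggaggagtaCccagacagga
TUBB6: gtgaggagttCccggaccgca

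The base before it is A in TUBB, TUBB2A and TUBB4B and T in TUBB6 and the bases around it differ between the 4 genes. Of the 6 C listed in all 3 alpha genes, the one with the most edited reads, base 1204 in codon 402, had 1 read in TUBA1A, 4 in TUBA1B and 2 in TUBA1C, too few to compare. C that were not listed in every gene of a family could hold more edited reads, such as 21 at base 587 of TUBB6, which was not listed in TUBB4B. Positions after A or U are missing from highly covered genes, so a C that was not listed is not read as unedited.

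Other tubulins and the partners of tubulin were counted as lists, beside the background in MDA-MB-231 of 12% of all genes called higher and 2.9% lower in edited reads, with a median change of 0.19, and 24.5% higher and 19% lower in coverage, with a median of -0.04. Of 12 other tubulin genes, 2 were tested for CoCl2: TUBA4A, another alpha-tubulin, had 117 and 141 edited reads with CoCl2 and 32 and 62 without it, a log2 change of 1.66 ± 0.36 (limma, adjusted p = 0.030), with a coverage change of 0.88 ± 0.22 (limma, adjusted p = 0.0052). TUBB3, the class III beta-tubulin of neurons and many tumours, had 47 and 47 with CoCl2 and 32 and 32 without it, a change of 0.69 ± 0.34 that did not pass (limma, adjusted p = 0.15). Neither was listed in HEK293T.

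Of 26 genes for tubulin folding and autoregulation, 21 were tested for edited reads and 5 were called higher and 1 lower, with a median change of 0.46, beside 12 and 2.9% of all genes and a median of 0.19. In coverage 8 of 23 were called higher and 8 lower, with a median of 0.16, beside 24.5 and 19% of all genes. The genes higher in coverage were ARL2, a small GTPase of the folding pathway, PDCL3, the cofactors TBCA, TBCB and TBCC and the prefoldin subunits PFDN1, PFDN2 and PFDN5. Those lower were the chaperonin subunits TCP1, CCT2, CCT4, CCT6A and CCT8, the prefoldin subunit VBP1, the cofactor TBCD and CNOT11. The 2 members with the most edited reads, CCT3 and CCT6A, had coverage changes of 0.30 ± 0.19 and -0.55 ± 0.19, of which that of CCT6A passed (limma, adjusted p = 0.025). TBCD, which works on the beta-tubulin subunit, was also the member called lower in edited reads (-1.77 ± 0.34, limma, adjusted p = 0.030). TTC5, the recognition factor itself, had 30 and 41 covering reads with CoCl2 and 30 and 41 without it, a change of 0.16 ± 0.34 (limma, adjusted p = 0.70), and CNOT11, the CCR4-NOT subunit that SCAPER recruits, had a coverage change of -2.24 ± 0.47 (limma, adjusted p = 0.0022). TTC5 and CNOT11 are named for their role and after their values were seen, as are the other list members beyond the 2 with the most edited reads. SCAPER did not reach the minimum for any test.

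Of 12 genes of the gamma-tubulin ring complex, 4 were tested for edited reads and 0 were called, with a median change of 0.04, beside 12% of all genes called higher. TUBGCP2, a core ring subunit, had a change of -0.68 ± 0.29 (limma, adjusted p = 0.11) and MZT2A, a small ring protein, 0.20 ± 0.47 (limma, adjusted p = 0.78). In coverage 2 of 6 were called higher, MZT2A and MZT2B, and 1 lower, TUBGCP3, with a median of -0.42. Of 49 microtubule-associated proteins and motors, 2 of 34 were called higher in edited reads, DYNLL1 and NUDC, and 0 lower, with a median of -0.46, beside 12 and 2.9% of all genes. In coverage 5 of 36 were called higher and 16 lower, with a median of -0.63, beside 24.5 and 19% of all genes and a median of -0.04. KIF20A, a mitotic kinesin, and DCTN1, the large dynactin subunit, had coverage changes of -0.999 ± 0.28 and -0.90 ± 0.28 and both passed (limma, adjusted p = 0.0086 and 0.015). In these lists too, the length trend of the coverage change was present and its part was not tested. In HEK293T the 9 folding genes, 12 microtubule-associated genes and 1 ring gene tested were all called higher with Ribo-STAMP, as were 99.7% of all genes.

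Across the 10 libraries, the genes outside the family whose editing per 100 covering reads ran most like that of TUBA1B, out of 331 genes with a coverage of at least 10 in each, were PKM, ENO1 and PSMD2, with Pearson r of 0.997, 0.995 and 0.995. ENO1 had 39.0, 38.4 and 37.3 edited reads per 100 covering reads in HEK293T Ribo-STAMP libraries, 1.32 and 1.33 with CoCl2, 0.98 to 1.04 in untreated MDA-MB-231, and 1.95 to 2.30 with APOBEC1-only. The libraries fall into separate clusters by line and construct, which these values share, so the likeness is a description of those clusters.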

How the data were processed

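Each deposited file gives, for coding positions of annotated isoforms with at least 1 edited read, a pair of numbers that the authors made from long reads. The files have no header, and the pair was read from its values as edited reads and covering reads. The authors' aligner, edit caller, filters, counting by strand and handling of positions found in every library are not stated in the labels or files. The submitters' processing notes name the builds hg19 and hg38. Edited reads were summed per gene and divided by relative depth, the median coverage ratio of the isoforms that all libraries of a cell line list (405 for HEK293T, 7321 for MDA-MB-231). Coverage was summed over those isoforms and scaled by TMM (trims of 30 and 5%). Editing per covering read was the log2 ratio of edited to unedited read-positions, with 0.5 added to each. Read-positions were the coverage of each of those isoforms times the number of its positions listed in any library of the line. Because the pair is not a plain count column, no count model was used. limma 3.58.1 (R 4.3.3) with a trend was fitted over all genes of a line, on log2(value + 1) or on that ratio, with two-sided p-values adjusted by Benjamini-Hochberg and called below 0.05. Tested genes had 10 or more edited reads in 3 (HEK293T) or 2 (MDA-MB-231) libraries, or a mean coverage of 10 or more. Adding 1 understates changes of rarely edited genes. The fits were tested on simulated data.

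The members and gene lists were chosen with earlier results of these data known. The text names all 9 members, the 2 genes of each list with the most edited reads, the 3 genes most like TUBA1B, and the position with the most edited reads in 5 genes; those of the other genes are not reported here. Coding sequences come from GENCODE 29, aligned with MAFFT 7.526. Alternatives were the scaling, pseudocounts, filters on positions and genes, the replicate number as a block, and leaving out each library. Relative coverage, the length trend for edited reads and for editing per covering read, and positions listed in 1 library were added after seeing the data.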

Additional observations from a re-analysis of the deposited data

How the results depend on the processing

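Of 374 results for single tubulins under the alternatives, 303 kept their direction and their side of the threshold, 55 lost the threshold, 13 gained it and 3 turned round. Those 3 were the edited reads of TUBA1B in HEK293T with TMM scaling (-0.62) and the coverage of TUBB in MDA-MB-231 with the length trend taken out (0.20) and without untreated replicate 1 (0.13, in a range of -0.32 to 0.13 without each library). In HEK293T, tubulins called higher in edited reads numbered 2, and 1 with positions covered by at least 20 reads, 1 with positions of at least 2 edited reads, 0 with TMM scaling, 6 with no filter and 2 without each library in turn. Per covering read they numbered 2, and 1 with positions of at least 2 edited reads and 1 with each library centred on its median gene. In MDA-MB-231, tubulins called higher in edited reads numbered 5, and 3 with positions covered by at least 20 reads, 1 with positions of at least 2 edited reads, 0 with no filter, 3 for the number of positions, 1 with the length trend taken out, 0 relative to genes of like coverage, 0 for positions listed in 1 library, and 0 to 9 without each library in turn. In coverage they numbered 6, and 3 with the length trend taken out and 0 to 8 without each library. With positions of at least 2 edited reads the family level per 100 covering reads was 29.2 for Ribo-STAMP and 0.873 for APOBEC1-only in HEK293T, and 3.70 with CoCl2 and 2.15 untreated in MDA-MB-231. With isoforms listed in every library it had 56.9 in HEK293T with Ribo-STAMP. The cause of these differences was not tested, except that filters leave fewer reads by construction.

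Over all genes of MDA-MB-231, calls in edited reads were 493 higher and 119 lower, and 107 and 64 with the length trend taken out, 125 and 80 with positions covered by at least 20 reads, 21 and 9 with positions of at least 2 edited reads, 130 and 57 for the number of positions, and 0 and 0 with no filter, relative to genes of like coverage and for positions listed in 1 library. Calls in coverage were 1390 and 1076, and 469 and 347 with the length trend taken out. Calls per covering read were 0 and 0, and 21 and 82 with positions covered by at least 20 reads. In HEK293T, edited reads gave 652 higher, and 174 with positions of at least 2 edited reads, 25 with TMM scaling and 2265 with no filter. Whether the replicate numbers pair the samples was left undecided by the correlations of the deviations in edited reads. In HEK293T they were 0.087, 0.12 and 0.33 for same-numbered libraries. Those of different number had 0.16, 0.18, -0.18, -0.20, -0.21 and -0.25. In MDA-MB-231 they were 0.023 for the same number and -0.023 for different numbers. With the replicate number as a block, 7 tubulins in MDA-MB-231 were called higher in edited reads, with 781 higher and 305 lower over all genes, 6 in coverage and 0 per covering read, and in HEK293T 2 in edited reads and 2 per covering read. Depth limits TUBG2 in both lines and all HEK293T members but TUBA1B, which hold under 30 edited reads a library.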
